A study of Mus musculus with 30 samples.

Results

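The 35 genes described here encode the machinery by which cells present peptides on major histocompatibility complex (MHC) molecules. They were taken from a list of symbols chosen for these roles, and all 35 were found among the 32386 genes to which deposited transcripts could be assigned. Their expression was followed across 10 mesenchymal cell populations of the mouse intestine, each represented by 3 libraries of bulk RNA sequencing. All mice were untreated adult C57BL6/Nrj animals of 8 to 10 weeks, and cells of the small intestinal (SI) and colonic lamina propria came from 3 individual mice. Dead cells and cells stained for Lineage markers, CD31, BP3, EpCAM or high NCAM were removed during sorting. From the small intestine the populations were PDGFRα hi fibroblasts (FB; ESAM-1-PDGFRα hiCD34-), Fgfr2+ FB (ESAM-1-PDGFRα intCD34-), CD34+ FB (ESAM-1-PDGFRα intCD34+, a gate that takes in Igfbp5+ FB and CD81+ FB), pericytes (PDGFRα-ESAM-1+PDPN-) and smooth muscle cells (SMC; PDGFRα-ESAM-1+PDPN+). From the colon they were PDGFRα hi FB (ESAM-1-PDPN+CD34-), Fgfr2+ FB (ESAM-1-PDPN hiCD34+CD90-), CD90+ FB (the same gate but CD90+), CD81+ FB (ESAM-1-PDPN intCD34+CD90-) and pericytes gated as in the small intestine. Because the FB gates differ between the tissues, gate and tissue cannot be told apart in a comparison of SI with colonic FB.

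MHC class I molecules pair a heavy chain with β2-microglobulin and display peptides that the proteasome cuts in the cytosol, that the TAP transporter carries into the endoplasmic reticulum (ER), and that chaperones load; interferon raises most of these genes, with NLRC5 as a dedicated transactivator. Class II molecules, driven by CIITA and escorted by the invariant chain CD74, display peptides from the endosomal route and are typical of professional antigen presenting cells. In the intestine, stromal cells lie beside lymphocytes and myeloid cells whose cytokines can change both routes.

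Each library held between 2245052 and 19096945 estimated counts (median 9601683). The smallest was SI Fgfr2+ FB replicate 3, and the next smallest, an SI pericyte library, held 6185421. Levels are given as CPM, that is, counts relative to the TMM-adjusted size of their library (TMM over all 30 libraries), always in the order of replicates 1, 2 and 3, or as a mean ± SD of 3. Levels of different members are compared only on a length-scaled level. This divides counts by effective transcript length and is expressed relative to the sum over all matched genes. Sums over marker lists, and the most abundant gene of such a list, are in CPM, which does not correct for length. A gene was called different when its edgeR adjusted p was below 0.05, over all genes tested, and its absolute log2 fold change exceeded 1.5. The genes of the sorting markers were measured in each population. *Pdgfra* averaged 6518 CPM in SI and 2444 CPM in the colonic PDGFRα hi FB against 10.7 CPM in SI pericytes, while *Esam* averaged 109.6 CPM in SI pericytes, 141 CPM in colonic pericytes and 119 CPM in SMC. *Cd34* averaged 629 CPM in SI CD34+ FB and 85.7 CPM in SI Fgfr2+ FB. Among colonic FB it averaged 494 CPM in the Fgfr2+ FB gate and 33.7 CPM in the PDGFRα hi FB gate. *Thy1*, which encodes CD90, averaged 197 CPM in colonic CD90+ FB, 98.8 CPM in colonic CD81+ FB and 26.6 CPM in colonic Fgfr2+ FB. *Pdpn* averaged 10.08 CPM in SMC and 0.185 CPM in SI pericytes, and overlapped between colonic Fgfr2+ FB and CD81+ FB. *Fgfr2*, which was not a sorting marker, averaged 1646 CPM in SI and 473 CPM in colonic Fgfr2+ FB. Replicates were least alike in SI pericytes, with correlations of 0.72 to 0.80 on log2 CPM across genes, and most alike in SI CD34+ FB (0.96 to 0.97).

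On the length-scaled level, *B2m*, the light chain shared by all class I molecules, stood above every other member in all 10 populations. It ran from 8928 ± 1189 in SI CD34+ FB to 1049 ± 72.9 in colonic pericytes. Of the classical heavy chains, *H2-K1* ranged from 159 to 1217 and *H2-D1* from 109 to 850.1, both lowest in colonic pericytes and highest in SI CD34+ FB. Other members lay above both in some populations, among them *Psme1* of the PA28 activator (449.6) and the chaperone gene *Calr* (270.3) in colonic pericytes. Of the summed length-scaled level of the 12 heavy chains, *H2-K1* supplied between 31.2% (colonic CD81+ FB) and 48.9% (SI pericytes). *H2-D1* supplied between 18.5% (SI pericytes) and 32.1% (SI CD34+ FB). The non-classical *H2-T23*, whose product Qa-1 binds NKG2 receptors, made up 12.3% of that sum in colonic Fgfr2+ FB and 3.85% in SI PDGFRα hi FB. *H2-Q7*, which encodes a Qa-2 antigen, made up 7.63% in SI and 2.02% in colonic Fgfr2+ FB. The class II genes were mostly lower. The highest length-scaled means were 51.9 for *Cd74* in colonic pericytes, where only *H2-K1* and *H2-D1* of the heavy chains exceeded it, 29.6 for *H2-Ab1* in the colonic PDGFRα hi FB, 21.2 for *H2-Eb1* in SI Fgfr2+ FB and 9.8 for *H2-Aa* in SI CD34+ FB. Among the 35 members, 9 had their highest mean CPM in SI PDGFRα hi FB (7.2% of 17564 genes did), 7 in SI pericytes (19.4%), 5 in colonic CD81+ FB (14%), and 4 each in SI CD34+ FB (3.68%) and SI Fgfr2+ FB (10.2%).

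Summed over the 12 heavy chains in CPM, SI populations other than SMC stood apart from all colonic ones. The sum was 2674, 2330.3 and 2417 CPM in SI CD34+ FB, 3329, 2762 and 1595 CPM in SI Fgfr2+ FB, 2926, 2659.7 and 1609 CPM in SI PDGFRα hi FB and 2426, 2433 and 1439 CPM in SI pericytes. Among colonic populations it was 665, 1016 and 981 CPM in Fgfr2+ FB, 733, 856 and 817 CPM in PDGFRα hi FB and 544, 572 and 636 CPM in pericytes. It was 889.9, 979.9 and 552 CPM in colonic CD81+ FB and 729.7, 1092 and 651 CPM in colonic CD90+ FB. In CPM, which does not correct for length, every one of the 12 SI libraries other than SMC lay above every one of the 15 colonic libraries. On the length-scaled level SI pericytes held 1424 ± 371 and colonic CD90+ FB 928 ± 225. There SI pericyte replicate 3 lay below colonic CD90+ FB replicate 2. SI SMC held 1096, 783 and 1047 CPM and overlapped with the colonic FB. This sum was not tested. In bulk libraries such as these, fewer cells that express a gene and less RNA per cell cannot be told apart.

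**Figure D1:**
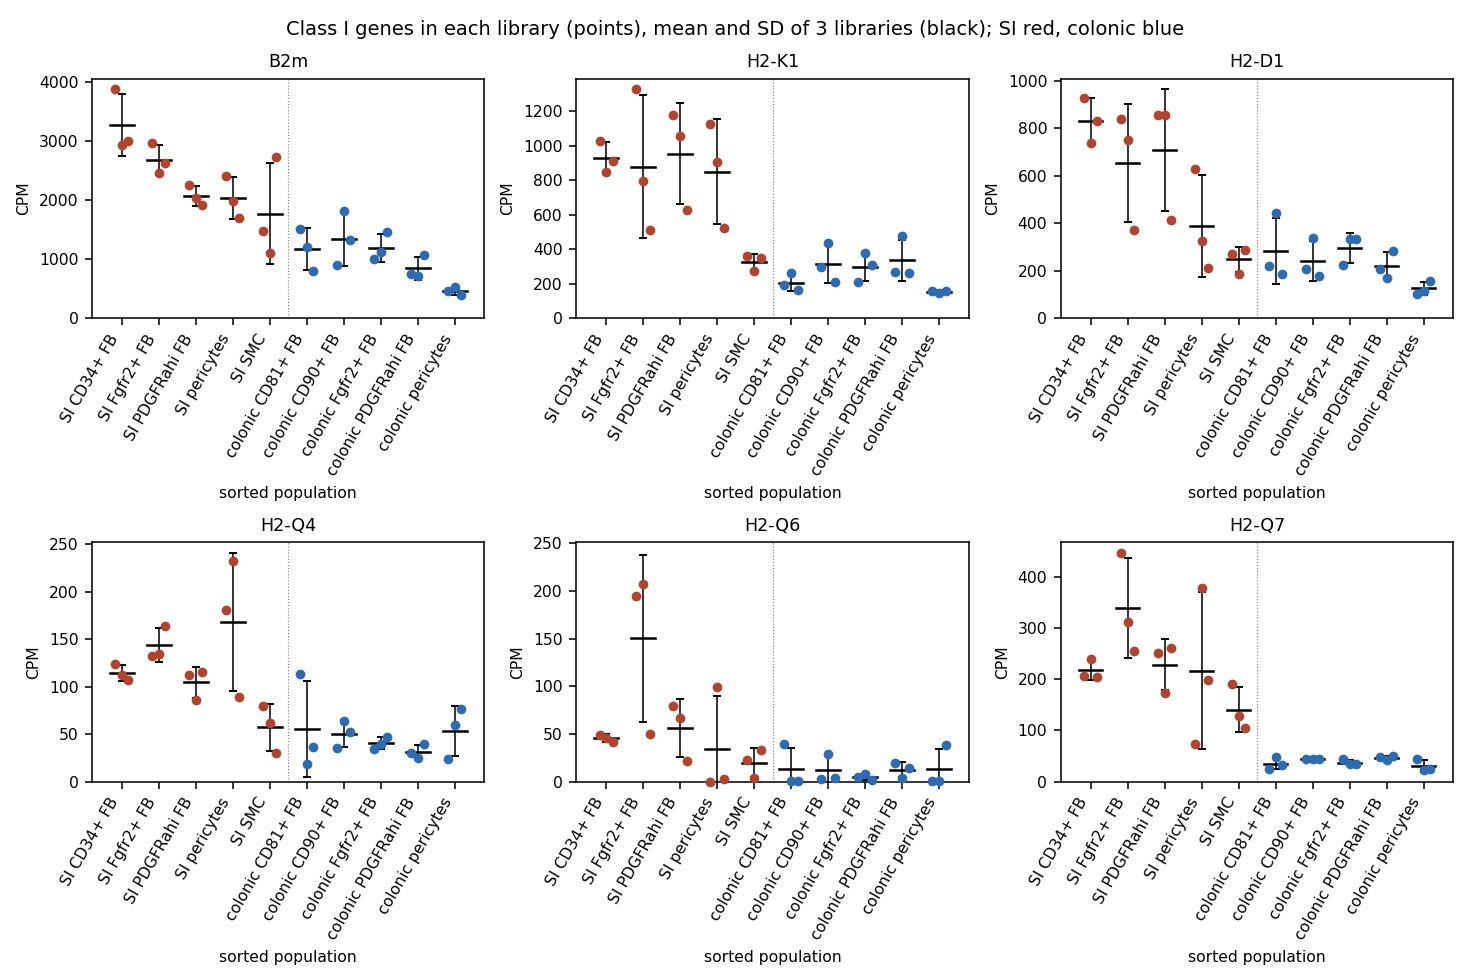
CPM of *B2m* and 5 class I heavy chains (vertical axes) in each of the 10 sorted populations (horizontal axes); points are libraries, black lines the mean and SD of 3 libraries, SI in red and colonic in blue. *H2-Q7* lay between 256 and 447 CPM in SI Fgfr2+ FB, above all 3 colonic Fgfr2+ FB libraries.

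The first question was whether FB subsets sorted from both tissues differ in this machinery between the small intestine and the colon. In PDGFRα hi FB, 4 of the 33 members tested were called higher in SI (0.638% of the 15677 genes tested were), namely *H2-D1*, *H2-Q4*, *H2-Q7* and *H2-Q10*. In Fgfr2+ FB, 4 of 33 were called higher in SI (1.27% of genes), namely *H2-K1*, *H2-Q4*, *H2-Q6* and *H2-Q7*. No member was called higher in colon by edgeR in PDGFRα hi FB, where 1.12% of genes were, nor in Fgfr2+ FB, where 1.82% were. In that direction 1 member in each subset had an unadjusted p under 0.05 (*H2-Eb1* and *H2-DMa*), as had 780 and 1488 of the 15677 genes. DESeq2 called 1 member higher in colon in PDGFRα hi FB (*H2-Eb1*) and 0 in Fgfr2+ FB. The 2 members that were not tested, *H2-Q1* and *H2-Q2*, had too few counts. The median log2 fold change of the tested members was 0.77 in PDGFRα hi FB, with 24 of 33 positive, against 0.00 over all genes. In Fgfr2+ FB it was 0.75, with 28 of 33 positive, against 0.01. *H2-Eb1* in PDGFRα hi FB and *H2-DMa* in the Fgfr2+ FB, which had 0 counts in all SI libraries of the subset, lie below these medians at any value their counts allow. Without SI PDGFRα hi FB replicate 1 or replicate 2 the number of members called in PDGFRα hi FB was 2.

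*B2m* passed the adjusted p in both subsets. In PDGFRα hi FB it stood at 2253, 2030.2 and 1922 CPM in SI and 744, 716 and 1069 CPM in colon, and in Fgfr2+ FB at 2959, 2449 and 2617 CPM in SI and 1005, 1111 and 1449 CPM in colon. All 6 SI libraries lay above all 6 colonic libraries. The log2 fold change was 1.26 ± 0.20 (SE) in PDGFRα hi FB (adjusted p = 0.00192) and 1.21 ± 0.20 in Fgfr2+ FB (adjusted p = 0.0023), under the fold threshold, so that *B2m* was not called in either. *H2-K1*, which encodes the classical K heavy chain, measured 1328, 796 and 512 CPM in SI and 207, 376 and 309 CPM in colonic Fgfr2+ FB. The lowest SI library exceeded the highest colonic one. Its log2 fold change was 1.59 ± 0.36 (adjusted p = 0.0216). In PDGFRα hi FB, *H2-K1* measured 1179.9, 1058 and 625 CPM in SI and 268, 474 and 264 CPM in colon, again without overlap. There the log2 fold change of 1.47 ± 0.36 (adjusted p = 0.0446) fell just short of the fold threshold, and *H2-K1* was called with all 30 libraries in 1 model. *H2-D1*, the classical D heavy chain, measured 856, 858 and 413 CPM in SI and 209, 171 and 283 CPM in the colonic PDGFRα hi FB, without overlap, a log2 fold change of 1.65 ± 0.33 (adjusted p = 0.0131). In Fgfr2+ FB it measured 839, 752 and 373 CPM in SI and 223, 332 and 333 CPM in colon. These also did not overlap, and the log2 fold change of 1.18 ± 0.33 was not called (adjusted p = 0.0646). The call of *H2-D1* in PDGFRα hi FB was lost without colonic replicate 1, colonic replicate 2, SI replicate 1 or SI replicate 2, with log2 fold changes of 1.48 to 1.61 and adjusted p of 0.0603 to 0.0946 (over all alternatives, adjusted p 0.000366 to 0.0946). That of *H2-K1* in Fgfr2+ FB was lost without colonic replicate 1, colonic replicate 3 or SI replicate 1, with log2 fold changes of 1.199 to 1.61 and adjusted p of 0.0758 to 0.0904 (alternatives 0.00127 to 0.0904).

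The non-classical *H2-Q* genes, of which *H2-Q6* and *H2-Q7* encode Qa-2 antigens, held 3 of the 4 calls in each subset. *H2-Q4* measured 112, 86 and 116 CPM in SI and 29.8, 24.8 and 39.4 CPM in the colonic PDGFRα hi FB, and 133, 134 and 164 CPM in SI and 34.6, 39.7 and 46.8 CPM in colonic Fgfr2+ FB. Every SI library lay above every colonic library of its subset. Its log2 fold changes were 1.71 ± 0.31 (adjusted p = 0.0057) and 1.88 ± 0.31 (adjusted p = 0.00251). *H2-Q7* measured 252, 172 and 262 CPM in SI and 47.1, 42.4 and 50.2 CPM in the colonic PDGFRα hi FB, and 447, 313 and 256 CPM in SI and 43.3, 34 and 33.9 CPM in colonic Fgfr2+ FB. The tissues did not overlap in either subset. Its log2 fold changes were 2.27 ± 0.29 (adjusted p = 0.000242) and 3.22 ± 0.30 (adjusted p = 1.85e-05), and this was the call with the lowest adjusted p among the members in each subset. *H2-Q6*, its close neighbour, measured 195, 207 and 49.4 CPM in SI and 4.34, 8.0 and 2.11 CPM in colonic Fgfr2+ FB. The SI libraries all lay above the colonic ones, although replicate 3 stood apart from the others. The log2 fold change was 4.98 ± 0.78 (adjusted p = 0.00155). In PDGFRα hi FB, *H2-Q6* measured 79.7, 66.4 and 21.5 CPM in SI and 19, 3.7 and 14.7 CPM in colon, and its log2 fold change of 2.13 ± 0.69 was called by DESeq2 and not by edgeR (adjusted p = 0.18). *H2-Q10*, whose product is a secreted class I molecule best known from liver, measured 192, 184 and 72.6 CPM in SI and 35.2, 29.7 and 39.4 CPM in the colonic PDGFRα hi FB, without overlap (log2 fold change 2.07 ± 0.46, adjusted p = 0.0271). This call was lost without any single colonic library or without SI replicate 1 or 2, with log2 fold changes of 1.83 to 2.15 and adjusted p of 0.103 to 0.141 (alternatives 0.000575 to 0.218). In Fgfr2+ FB *H2-Q10* overlapped and was not called, at 64.0, 195 and 101 CPM in SI and 38.5, 70.3 and 85.8 CPM in colon. When all 30 libraries were fitted in 1 model, the calls of *H2-Q4* (adjusted p = 0.145 and 0.0767; alternatives 1.13e-06 to 0.145 and 2.58e-08 to 0.0767), *H2-Q6* in Fgfr2+ FB (0.199; alternatives 1.76e-11 to 0.199) and *H2-Q10* (0.218) were lost, with log2 fold changes of 1.74, 1.83, 4.96 and 2.105, and *H2-Q7* remained called in both subsets.

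Reads from these paralogs are hard to separate. Of the 31-base stretches of its transcripts, *H2-Q6* shared 51.7% with transcripts of other genes, most with *H2-Q4* (24.6%), and *H2-T22*, another non-classical heavy chain, shared 51.7%, most with *H2-T10* (47.2%). Their separate levels are therefore uncertain. The shares were 39.2% for *H2-Q7*, 37.5% for *H2-Q4*, 30.3% for *H2-Q10*, 26.8% for *H2-D1* and 24.2% for *H2-K1*, and 0 for *B2m*, *Nlrc5*, *Psmb10*, *H2-DMa* and *Canx*. *H2-Q8* and *H2-Q9*, which are close copies of *H2-Q6* and *H2-Q7*, were not among the genes with counts. The closest gene of *H2-Q7* was *H2-Q10* (22.4%). A sum of *H2-Q6* and *H2-Q7* takes out the division of reads between these 2, but not that with *H2-Q4* or *H2-Q10*. It was 642, 520.0 and 306 CPM in SI and 47.6, 42 and 36.1 CPM in colonic Fgfr2+ FB, and 332, 239 and 283 CPM in SI and 66.1, 46.1 and 64.9 CPM in the colonic PDGFRα hi FB. The SI and colonic libraries of each subset remained far apart.

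The other non-classical heavy chains were not called in either subset. For *H2-T23* the log2 fold change was 0.77 ± 0.55 in PDGFRα hi FB and 0.94 ± 0.55 in the Fgfr2+ FB. For *H2-M3*, which presents N-formylated peptides, it was 0.96 ± 0.53 and 0.75 ± 0.53. For *H2-T22* it was 0.65 ± 0.53 and 0.99 ± 0.53, and for *H2-T24*, -0.61 ± 0.60 and 1.33 ± 0.62. Among the genes of peptide transport and loading, *Tap1*, one chain of the peptide transporter, measured 146, 54.1 and 86.8 CPM in SI and 27.5, 27.6 and 32.5 CPM in colonic Fgfr2+ FB. These values did not overlap. The log2 fold change of 1.75 ± 0.56 was not called by edgeR (adjusted p = 0.11), but it was by DESeq2 and by edgeR without a count filter. In PDGFRα hi FB *Tap1* overlapped, at 142, 49.8 and 30.6 CPM in SI and 31.6, 66.2 and 26.5 CPM in colon. *Tapbpl*, a peptide editor related to tapasin, measured 49.2, 56.4 and 34.3 CPM in SI and 21.8, 10.08 and 15.5 CPM in the colonic PDGFRα hi FB, without overlap, and its log2 fold change of 1.53 ± 0.59 was not called (adjusted p = 0.35). For the partner transporter chain *Tap2*, tapasin (*Tapbp*) and the trimming peptidase *Erap1*, absolute log2 fold changes stayed below 1. The general ER chaperones that also serve glycoprotein folding, *Calr*, *Canx* and *Pdia3*, had log2 fold changes of 0.29, 0.18 and -0.00 in PDGFRα hi FB and 0.26, 0.28 and 0.04 in the Fgfr2+ FB. The 10 genes of ER quality control listed beside them had median log2 fold changes of 0.11 and -0.26.

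Interferon-inducible catalytic subunits replace constitutive ones in the immunoproteasome. *Psmb9*, the β1i subunit, measured 177, 87.9 and 147 CPM in SI and 13, 24.2 and 31.8 CPM in the colonic PDGFRα hi FB, and 82.7, 51.3 and 71.9 CPM in SI and 1.24, 28.5 and 22.5 CPM in colonic Fgfr2+ FB. The tissues did not overlap in either subset. Its log2 fold changes of 2.55 ± 0.72 and 2.03 ± 0.71 were not called by edgeR (adjusted p = 0.0987 and 0.142). *Psmb8*, the β5i subunit, had log2 fold changes of 0.82 ± 0.73 and 2.36 ± 0.76 and *Psmb10*, the β2i subunit, 1.09 ± 0.71 and 0.44 ± 0.71, none called by edgeR. DESeq2 called *Psmb9* in both subsets and *Psmb8* in Fgfr2+ FB, and edgeR without a count filter called *Psmb9* in PDGFRα hi FB and *Psmb8* in Fgfr2+ FB. The PA28 activator genes *Psme1* and *Psme2* had log2 fold changes between 0.04 and 0.50 in the 2 subsets. The constitutive partners *Psmb5*, *Psmb6* and *Psmb7* had 0.06, -0.17 and 0.07 in PDGFRα hi FB and 0.62, -0.09 and 0.47 in the Fgfr2+ FB, and the median over 15 constitutive proteasome genes was -0.01 in both. On the length-scaled level, the 3 inducible subunits made up 75, 57.4 and 60.7% of the 6 catalytic subunits in SI PDGFRα hi FB and 23.5, 44.7 and 39.6% in the colonic PDGFRα hi FB. They made up 56, 46.9 and 60.4% in SI and 17.5, 35.8 and 36.7% in colonic Fgfr2+ FB. In both subsets the SI libraries lay above the colonic ones. By pair, *Psmb9* averaged 80.3% of its sum with *Psmb6* in SI and 44.7% in the colonic PDGFRα hi FB, and 72.5% and 35.5% in the Fgfr2+ FB of these tissues. The share of *Psmb8* with *Psmb5* overlapped between the tissues in PDGFRα hi FB (56.9, 43.9 and 13.5% in SI, 19.1, 33.2 and 31.5% in colon), and that of *Psmb10* with *Psmb7* overlapped in both subsets and averaged lower in SI (23.9%) than in colon (31.7%) for Fgfr2+ FB. The highest summed share elsewhere was in SI CD34+ FB (61.9, 61.3 and 54.3%). Colonic CD81+ FB (20.2, 40.8 and 20.5%), colonic CD90+ FB (36.1, 42 and 30.7%) and SI SMC (49.2, 25.4 and 14.4%) lay lower. SI pericytes held 61.6, 35.7 and 39.9%, with replicate 1 near SI CD34+ FB, and colonic pericytes had the lowest mean (12.2, 33.5 and 6.22%). These shares were not tested.

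*Nlrc5* encodes the class I transactivator. It measured 26.5, 22.6 and 39.7 CPM in SI and 10.7, 2.04 and 1.09 CPM in the colonic PDGFRα hi FB, and 32.4, 40 and 38 CPM in SI and 4.65, 2.44 and 14.1 CPM in colonic Fgfr2+ FB. All SI libraries lay above all colonic libraries of their subset, but the colonic replicates spread widely. The log2 fold changes of 2.65 ± 0.81 and 2.44 ± 0.80 were not called by edgeR (adjusted p = 0.149 and 0.122), and DESeq2 called both. Without colonic PDGFRα hi FB replicate 1, edgeR called *Nlrc5* in that subset.

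**Figure D2:**
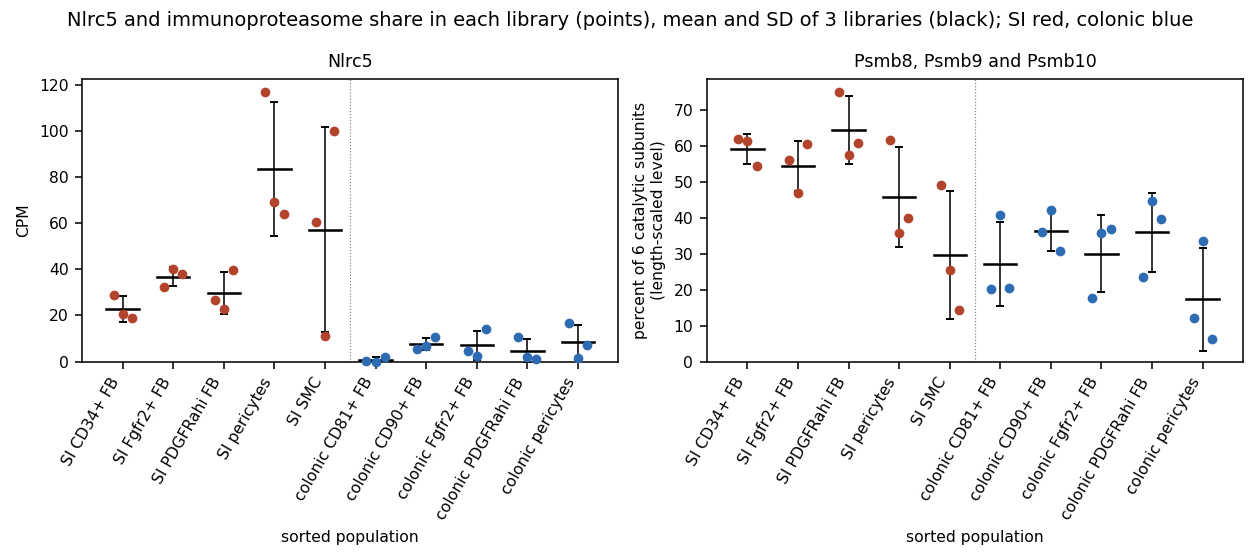
CPM of *Nlrc5*, and the percentage that *Psmb8*, *Psmb9* and *Psmb10* make of the length-scaled level of 6 catalytic proteasome subunits (vertical axes), in each sorted population (horizontal axes); points are libraries, black lines the mean and SD of 3, SI in red and colonic in blue. The inducible share averaged 64.4 ± 9.36% in SI and 35.9 ± 11% in colonic PDGFRα hi FB.

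Some interferon-induced genes were called higher in SI. Of 34 tested in PDGFRα hi FB, 3 were called higher in SI, where 0.638% of all genes were, with a median log2 fold change of 0.72 and 28 positive. They were *Iigp1* (2.06 ± 0.41, adjusted p = 0.0123) and *Irgm2* (1.85 ± 0.45, adjusted p = 0.0453), which are immunity-related GTPases, and the guanylate-binding protein *Gbp6* (1.63 ± 0.34, adjusted p = 0.0181). In Fgfr2+ FB, 11 of 34 were called higher in SI, where 1.27% of all genes were, with a median of 1.52 and 32 positive. The largest log2 fold changes among these belonged to the chemokine *Cxcl9* (3.85 ± 0.56, adjusted p = 0.000964), the nucleic acid sensor *Zbp1* (3.83 ± 0.63, adjusted p = 0.00224) and *Gbp4* (3.38 ± 0.57, adjusted p = 0.00285). *Cxcl9* stood at 248, 129.7 and 126 CPM in SI and 20.4, 6.34 and 8.76 CPM in colonic Fgfr2+ FB. These did not overlap, and the tissue difference of *Cxcl9* was not called different between the subsets (log2 difference -1.86 ± 0.72, adjusted p = 0.309).

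**Figure D3:**
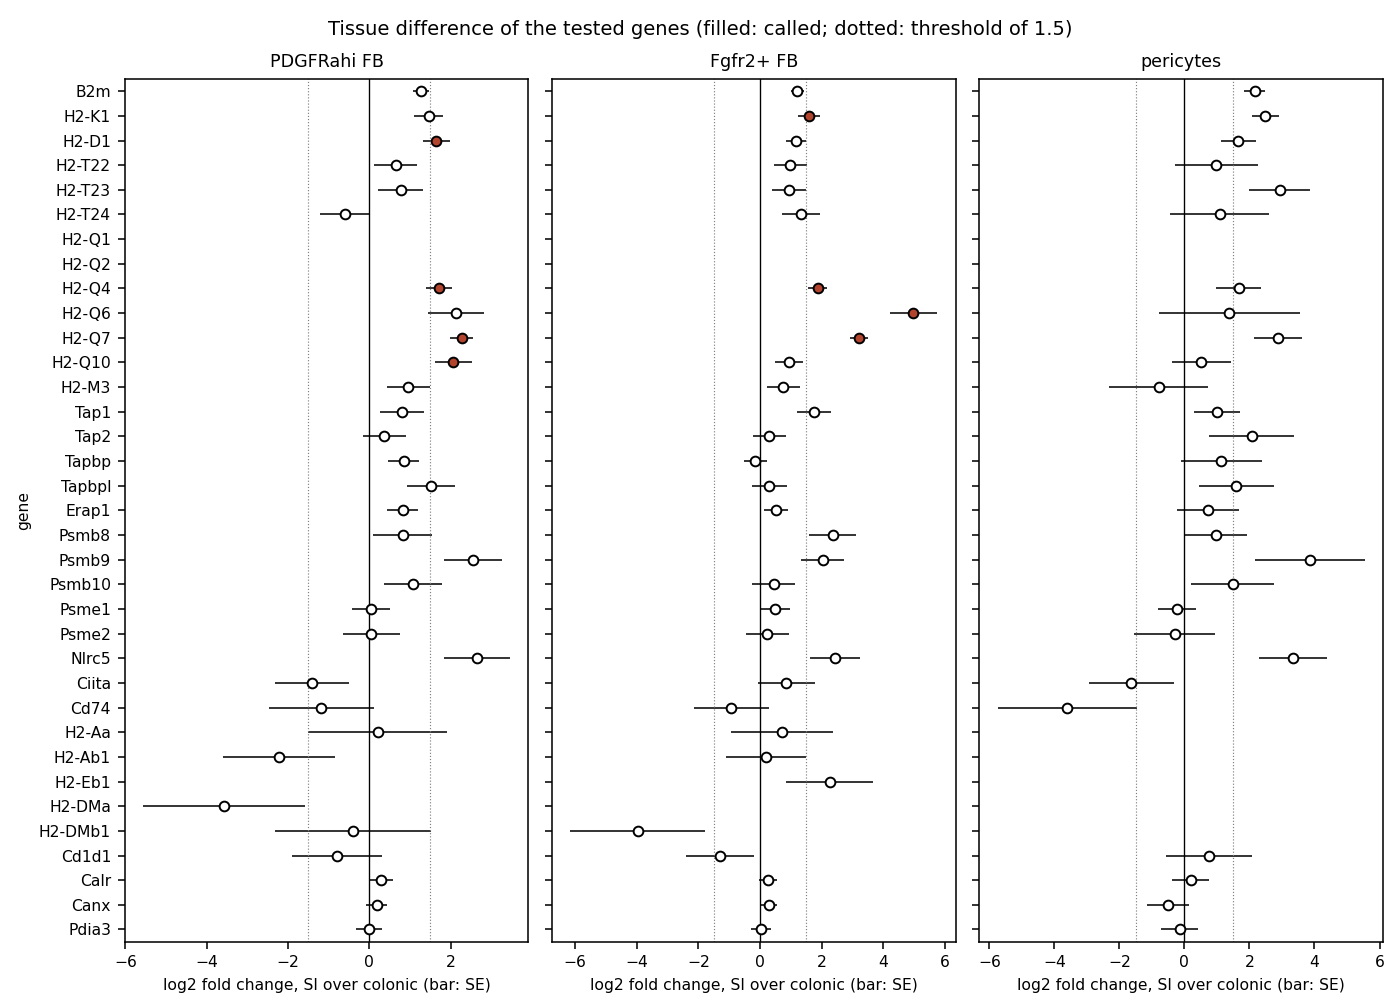
Log2 fold change of SI over colonic libraries (horizontal axes) of each tested member (vertical axis) in PDGFRα hi FB, Fgfr2+ FB and pericytes; bars are the SE of the model of 12 or 6 libraries, filled points are called, dotted lines mark 1.5, and genes with 0 counts in every library of one tissue are left out. *H2-Q7* reached 2.27 and 3.22 in the FB subsets.

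Genes listed as markers of other cell types differed between the tissues as well. The summed level of 11 pericyte and smooth muscle markers was 3105, 4754 and 2956 CPM in SI and 1637, 1429 and 2509 CPM in the colonic PDGFRα hi FB, and 3118, 2957 and 2619.7 CPM in SI and 766, 958 and 1350.0 CPM in colonic Fgfr2+ FB. SI lay above colon in each subset, and the sum was 46739.5 CPM in SI pericytes themselves. In the other direction, 1 of 7 fibroblast markers was called higher in colon in PDGFRα hi FB (median log2 fold change -0.63, with 2 positive), and all 7 had negative log2 fold changes in the Fgfr2+ FB (median -0.90). None of the 11 pericyte and smooth muscle markers was at 0 in these FB populations. This list includes *Acta2*, which the paper reports in a proportion of colonic PDGFRα hi FB themselves. Whether these levels come from FB or from other cells was not tested. Of 10 of these tested, 4 were called higher in SI in PDGFRα hi FB (*Rgs5* 2.25, *Cspg4* 1.88, *Myh11* 1.71 and *Des* 3.79 on the log2 scale) and 3 in Fgfr2+ FB (*Rgs5*, *Myh11* and *Des*). The most abundant by CPM was *Myh11* in SI PDGFRα hi FB and *Rgs5* in SI Fgfr2+ FB. Macrophage and monocyte markers (12 genes) summed to 49.3, 45.8 and 17.1 CPM in SI and 21.1, 46.8 and 24.4 CPM in the colonic PDGFRα hi FB. They summed to 51.3, 11.9 and 69.5 CPM in SI and 48.9, 53.3 and 64.3 CPM in colonic Fgfr2+ FB. These overlapped in both subsets. Of 8 tested, 1 was called higher in colon in the Fgfr2+ FB, where 3 were positive and the median log2 fold change was -2.02. In PDGFRα hi FB the median was -0.80, with 2 of 8 positive. Of 7 endothelial markers tested, 4 were positive in PDGFRα hi FB (median log2 fold change 0.50) and 6 in Fgfr2+ FB (0.78). Of 2 T cell, NK cell and ILC markers, 1 and 2 were positive in these subsets (medians 0.54 and 2.52). Of 4 dendritic cell markers, 0 and 2 were positive (medians -0.90 and 0.25). None of these was called by edgeR. The part of any of these cells in the class I results was not tested.

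Whether the tissue difference itself differed between the 2 subsets was tested as an interaction. By edgeR 0 of 33 members were called with a more positive tissue difference in PDGFRα hi FB (0.6% of genes were) and 0 in Fgfr2+ FB (0.683%). At an unadjusted p under 0.05 the counts were 0 and 4 members, against 932 and 836 of 15677 genes, and DESeq2 called 0 and 1 member (*H2-Eb1*, a class II β chain). The 4 were *H2-Q6* (log2 difference -2.85 ± 0.96, adjusted p = 0.214), *H2-Q7* (-0.95 ± 0.39, adjusted p = 0.355), *H2-T24* (-1.94 ± 0.86, adjusted p = 0.406) and *H2-Eb1* (adjusted p = 0.0612). *H2-Eb1* was called by edgeR without a count filter, with 10 counts required in every library of 1 population, and without colonic PDGFRα hi FB replicate 3 or without SI Fgfr2+ FB replicate 3, when 1 member was called. So the call of *H2-K1* and *H2-Q6* in Fgfr2+ FB and of *H2-D1* and *H2-Q10* in PDGFRα hi FB does not show that the subsets differ in these genes.

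Between the subsets, averaged over both tissues, 1 of 33 members was called higher in Fgfr2+ FB (2.2% of genes were) and 0 higher in PDGFRα hi FB (2.19%). At an unadjusted p under 0.05 the counts were 4 and 2 members, against 1371 and 1396 of 15677 genes. DESeq2 called 2 members (*Cd74* and *H2-Eb1*) and 0. The called member was *Cd74*, the invariant chain of class II. It measured 0.419, 24.1 and 3.46 CPM in SI and 16, 16.4 and 23 CPM in colonic Fgfr2+ FB, and 0.268, 1.81 and 0 CPM in SI and 0.49, 1.53 and 2.85 CPM in the colonic PDGFRα hi FB. The colonic Fgfr2+ FB libraries were high, whereas 1 SI Fgfr2+ FB library was as low as the PDGFRα hi FB libraries, so that the subsets overlapped. The log2 fold change was 3.62 ± 0.96 (adjusted p = 0.0328). It remained called without SI PDGFRα hi FB replicate 2, SI Fgfr2+ FB replicate 1 or SI Fgfr2+ FB replicate 3, and was lost without any of the other 9 libraries, that is, without colonic Fgfr2+ FB replicate 1, 2 or 3, colonic PDGFRα hi FB replicate 1, 2 or 3, SI PDGFRα hi FB replicate 1 or 3, or SI Fgfr2+ FB replicate 2 (log2 fold changes of 2.44 to 3.95 and adjusted p of 0.0534 to 0.124; alternatives 0.000498 to 0.124), and with all 30 libraries in 1 model (adjusted p = 0.114). The median log2 fold change of all tested members was -0.02, with 16 of 33 positive, against 0.03 over all genes.

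Pericytes were sorted through the same gate in both tissues. In that comparison edgeR called 0 of 28 members higher in SI (0% of genes) and 0 higher in colon (0%), and 0 of all 13369 genes tested. At an unadjusted p under 0.05, 8 members were higher in SI and 0 in colon, among 1094 genes in all. DESeq2 called 4 members higher in SI (*B2m*, *H2-K1*, *H2-Q7* and *Nlrc5*) and 0 in colon, among 347 genes. By edgeR, *B2m* and *H2-K1* were called higher in SI without a count filter, and these with *H2-D1*, *H2-T23* and *H2-Q7* with all 30 libraries in 1 model. The lowest adjusted p of any gene by edgeR was 0.0881. *B2m* measured 2402, 1982 and 1697 CPM in SI and 459, 526 and 398 CPM in colonic pericytes, and *H2-K1* 1124, 904 and 521 CPM and 159.7, 146 and 156 CPM. Both were without overlap, with log2 fold changes of 2.16 ± 0.32 (adjusted p = 0.124) and 2.49 ± 0.42 (adjusted p = 0.139). *H2-Q7* measured 74.2, 379 and 198 CPM in SI and 43.6, 21.7 and 24.6 CPM in colonic pericytes. *Nlrc5* measured 117, 69.2 and 64 CPM and 16.6, 1.51 and 7.04 CPM. These too did not overlap, with log2 fold changes of 2.88 ± 0.74 and 3.35 ± 1.05. The median over the tested members was 1.04, with 21 of 28 positive, against 0.01 over all genes. Among 33 tested interferon-induced genes 31 were positive with a median of 2.12, and 0 were called by edgeR. *H2-Q6* could not be judged in pericytes, since it stood at 0, 99 and 2.83 CPM in SI and 0.538, 0.126 and 37.9 CPM in colon.

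Within the small intestine, pericytes were set against the mean of the 3 FB populations. Here 2 of 34 members were called higher in pericytes (8.63% of genes were) and 2 higher in FB (6.56%), shares no larger than those of all genes. *Nlrc5* was higher in pericytes, at 117, 69.2 and 64 CPM against 18.7 to 40 CPM in the 9 FB libraries (mean 29.7). All 3 pericyte libraries exceeded every FB library, and the log2 fold change was 1.51 ± 0.47 (adjusted p = 0.0347). The call was lost without SI pericyte replicate 1, CD34+ FB replicate 2 or 3, PDGFRα hi FB replicate 1 or 2, or Fgfr2+ FB replicate 1, with log2 fold changes of 1.18 to 1.49 and adjusted p of 0.0497 to 0.143 (alternatives 0.00858 to 0.154), and also without a count filter (log2 fold change 1.48) and with all 30 libraries in 1 model (adjusted p = 0.154). *H2-Q1*, a non-classical heavy chain, measured 0, 0.126 and 34.1 CPM in pericytes and 0 to 0.872 CPM in FB. Its log2 fold change of 5.07 ± 1.51 (adjusted p = 0.0325) rests on SI pericyte replicate 3, without which it was -1.99 (adjusted p = 0.535; alternatives 0.0121 to 0.584). It was also lost without any CD34+ FB or PDGFRα hi FB library or without Fgfr2+ FB replicate 1 or 2 (log2 fold changes of 4.78 to 5.32) and by DESeq2. *B2m*, *H2-K1* and *H2-D1* had log2 fold changes of -0.38 ± 0.25, -0.12 ± 0.30 and -0.91 ± 0.36, not called. *Pdia3*, a thiol oxidoreductase of the loading complex, had -1.16 ± 0.37 (adjusted p = 0.0385), under the fold threshold. The median of the tested members was -0.48, with 11 of 34 positive, against 0.02 over all genes. The 2 members called higher in FB were the class II chains *H2-Aa* and *H2-Ab1*, described with their group. The number of members called was 0 without CD34+ FB replicate 2 or 3, PDGFRα hi FB replicate 1 or 2, or Fgfr2+ FB replicate 1, 1 without SI pericyte replicate 3 or CD34+ FB replicate 1, and 2 without SI pericyte replicate 1 or Fgfr2+ FB replicate 2.

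SI SMC were compared with the same FB libraries and had lower levels of several members. Of 34 members 3 were called higher in FB (1.63% of genes were) and 0 higher in SMC (3.05%). Higher in SMC by edgeR at an unadjusted p under 0.05 were 1 member and 1676 of 16237 genes. DESeq2 called 1 member higher in SMC, and in both cases it was *Cd1d1*. *H2-D1* measured 272, 188 and 286 CPM in SMC against 373 to 930.0 CPM in the 9 FB libraries. *H2-T22* measured 20.6, 6.45 and 11.2 CPM against 40.7 to 85.8 CPM. *Calr*, the ER chaperone calreticulin, measured 132, 39 and 85.6 CPM against 189 to 383 CPM. No SMC library reached the lowest FB library for any of these genes. Their log2 fold changes were -1.55 ± 0.37 (adjusted p = 0.0196), -2.22 ± 0.50 (adjusted p = 0.0129) and -1.82 ± 0.43 (adjusted p = 0.0178). *H2-K1* measured 359, 274 and 349.8 CPM against 512 to 1328 CPM, a log2 fold change of -1.49 ± 0.33 (adjusted p = 0.0112) just under the fold threshold. *B2m* measured 1474, 1104 and 2731 CPM, with a log2 fold change of -0.57 ± 0.25 that was not called. The median over the members was -1.10, with 6 of 34 positive, against -0.02 over all genes. The ER quality control genes *Hspa5* and *Dnajb11* were also called higher in FB, the 2 called of 10 tested (-1.81 ± 0.30 and -1.57 ± 0.44). The call of *H2-D1* was lost without any 1 SMC library, PDGFRα hi FB replicate 2 or Fgfr2+ FB replicate 1 (log2 fold changes of -1.63 to -1.39 and adjusted p of 0.0334 to 0.107; alternatives 0.00247 to 0.107), and without a count filter (log2 fold change -1.49). Those of *H2-T22* (log2 fold changes of -2.10 to -1.90 and adjusted p of 0.069 to 0.0748; alternatives 1.40e-06 to 0.0748) and *Calr* (log2 fold changes of -1.78 to -1.47 and adjusted p of 0.0811 to 0.094; alternatives 0.000973 to 0.094) were lost without SMC replicate 2 or 3, and without SMC replicate 2 the number called was 0. With all 30 libraries in 1 model *H2-T22* was lost as well (adjusted p = 0.0549).

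In the colon, pericytes were compared with the mean of the 4 FB populations. Called higher in pericytes were 4 of 34 members (8.99% of genes were), and 0 were called higher in FB by edgeR (7.58%). Higher in FB at an unadjusted p under 0.05 were 11 members and 2523 of 16458 genes, and DESeq2 called 2 members in that direction. *H2-Q10* measured 123, 130.0 and 142 CPM in pericytes against 18.8 to 96.8 CPM in the 12 FB libraries (mean 46.9). Pericytes lay above every FB library, and on the length-scaled level *H2-Q10* made up 10.4% of their heavy chains. The log2 fold change was 1.57 ± 0.31 (adjusted p = 0.00162), and without colonic pericyte replicate 3 it was 1.499, no longer above the threshold (adjusted p = 0.00906; alternatives 2.44e-05 to 0.0183). *Tap1* measured 99.3, 29.2 and 135 CPM against 9.13 to 66.2 CPM. Replicate 2 lay inside the FB range, and the log2 fold change was 1.54 ± 0.48 (adjusted p = 0.0323). This call was lost without pericyte replicate 1 or 3, CD81+ FB replicate 1 or 3, CD90+ FB replicate 3, or PDGFRα hi FB replicate 1 or 3 (log2 fold changes of 1.05 to 1.49 and adjusted p of 0.0363 to 0.213; alternatives 0.0101 to 0.213). *H2-Q1* measured 0.215, 0 and 10.4 CPM against 0 to 1.56 CPM, so that its log2 fold change of 5.35 ± 1.40 (adjusted p = 0.0132) again comes from 1 library, replicate 3. Without that library *H2-Q1* had too few counts to be tested, as it had without CD90+ FB replicate 1 or 3, and it was not called by DESeq2. In the opposite direction *B2m* (-1.28 ± 0.26, adjusted p = 0.00155), *H2-D1* (-1.04 ± 0.31, adjusted p = 0.0237) and *H2-K1* (-0.88 ± 0.28, adjusted p = 0.0357) passed the adjusted p but not the fold threshold. The median over the members was -0.49, with 13 of 34 positive, against 0.05 over all genes. The number of members called was 1 without pericyte replicate 3 and 2 without CD90+ FB replicate 3.

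Of the class II genes, *H2-Aa*, *H2-DMa* and *H2-DMb1* held at most 3 counts in most libraries, whereas *Cd74* and *H2-Ab1* held more in most. *H2-Aa* had 0 counts in all SI pericyte and SI SMC libraries, and its highest population was SI CD34+ FB (4.58, 3.05 and 3.97 CPM). *H2-Ab1*, the β chain that pairs with it, had 0 counts in all SI pericyte libraries and was highest in the colonic PDGFRα hi FB (15.4, 2.55 and 17 CPM). *H2-Eb1* had 0 counts in all SI PDGFRα hi FB and all SI pericyte libraries. With a floor of 3 counts per library, SI pericytes lay at least 4.54-fold lower than SI FB for *H2-Aa* and at least 9.51-fold lower for *H2-Ab1*. The FB libraries spanned 0 to 5.3 CPM and 0 to 12.4 CPM, and 1 of the 9 FB libraries, SI PDGFRα hi FB replicate 3, was at 0 for both. Both were called (adjusted p = 0.0425 and 0.0397; alternatives 0.0144 to 0.0897 and 0.00154 to 0.0874). *H2-Aa* was lost without any 1 pericyte or CD34+ FB library, PDGFRα hi FB replicate 1 or 2, or Fgfr2+ FB replicate 1 (adjusted p of 0.0508 to 0.0897). *H2-Ab1* was lost without these and also without Fgfr2+ FB replicate 2 (adjusted p of 0.0506 to 0.0874). With all 30 libraries in 1 model *H2-Aa* was lost as well (adjusted p = 0.0547). For *H2-Eb1* in PDGFRα hi FB, SI lay at least 18.6-fold lower than colon (2.57, 14.2 and 0.272 CPM), a bound that rests mostly on colonic replicate 2, while replicate 3 lay near the floor. It was not called by edgeR (adjusted p = 0.0609), but it was by DESeq2 and by edgeR without a count filter, with 10 counts required in every library of 1 population, or without colonic replicate 3. In SI Fgfr2+ FB it measured 37.9, 3.79 and 0.346 CPM, nearly all of it in replicate 1.

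On the length-scaled level *Cd74* was the class II member with the highest mean in any population, 51.9 in colonic pericytes. There it measured 0, 54.3 and 55.5 CPM. Replicate 1 held none of it while the others were high, and the FB libraries spanned 0.0631 to 23 CPM. It was called higher in colonic pericytes than in colonic FB (log2 fold change 3.59 ± 0.91, adjusted p = 0.00932; alternatives 0.000363 to 0.0517), with overlap. *H2-Ab1* in the same pericyte libraries measured 0, 21.8 and 0.215 CPM. *Ciita*, the class II transactivator, had means between 0.966 CPM in colonic Fgfr2+ FB and 6.02 CPM in the colonic PDGFRα hi FB, and was called in no comparison by edgeR or DESeq2. *H2-DMa* and *H2-DMb1*, whose products exchange class II peptides, had means of at most 3.47 and 2.41 CPM. *Cd1d1*, which presents lipids, was highest in SI SMC (15.6, 5.68 and 19.5 CPM), with a log2 fold change over FB of 2.22 ± 0.65 that was not called by edgeR in the main test (adjusted p = 0.0599), but it was by DESeq2 and by edgeR with 10 counts required in every library of 1 population.

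Markers of immune cells were measured beside these genes. The 12 macrophage and monocyte markers summed to 96.6, 185 and 42.2 CPM in colonic and 234, 89.6 and 89.9 CPM in SI pericytes. Of them, 2 had 0 counts in all 3 colonic and 6 in all 3 SI pericyte libraries, and *Cd68* was the most abundant in both (45.3 and 115 CPM). *Csf1r*, a receptor of macrophages, measured 2.37, 49.6 and 0.575 CPM in colonic pericytes, high in the replicate 2 that also held *H2-Ab1*, and 0, 0.379 and 15.7 CPM in SI pericytes. *Cd74* was as high in colonic pericyte replicate 3 (55.5 CPM), where *Csf1r* was low, as in replicate 2 (54.3 CPM). In SI CD34+ FB the macrophage list summed to 31.4, 29.5 and 32 CPM with 0 of 12 at 0, and *Csf1r* measured 2.29, 1.57 and 3.01 CPM. The pan-leukocyte marker *Ptprc* averaged between 3.66 CPM in the colonic PDGFRα hi FB and 10.2 CPM in SI pericytes. The 7 dendritic cell markers averaged 17.6 CPM (SI PDGFRα hi FB) to 47.4 CPM (SI pericytes) in sum, with *Zbtb46* the most abundant throughout. *Itgax* was at 0 in 29 of 30 libraries, and *Flt3* measured 6.0, 0 and 1.04 CPM in SI Fgfr2+ FB. The 7 B cell and plasma cell markers averaged at most 26 CPM in sum outside SI pericytes, where they summed to 213, 12.2 and 16.4 CPM, through 199.5 CPM of *Cd79a* in replicate 1. The 8 markers of T cells, NK cells and ILC averaged 18.6 to 80.4 CPM in sum, mostly *Cd3d*, while *Cd3e* was at 0 in all libraries of 7 populations. The part of such cells in the class II levels was not tested.

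**Figure D4:**
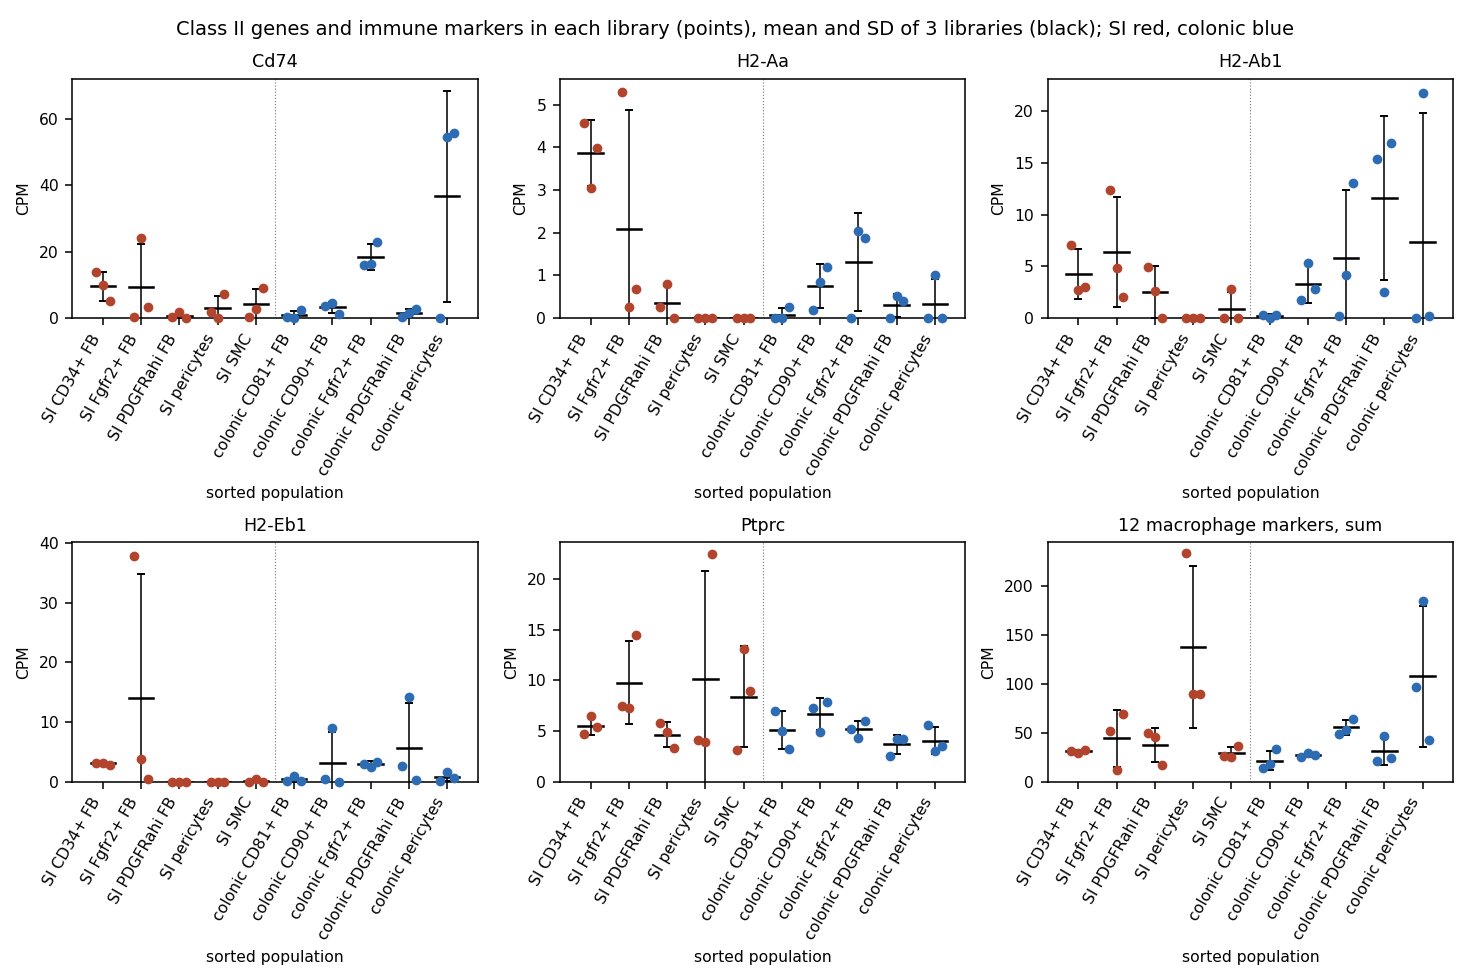
CPM (vertical axes) of 4 class II pathway genes, of *Ptprc* and of the sum of 12 macrophage and monocyte markers in each sorted population (horizontal axes); points are libraries, black lines the mean and SD of 3 libraries, SI in red and colonic in blue. *H2-Ab1* measured 15.4, 2.55 and 17 CPM in colonic PDGFRα hi FB and 0 in all SI pericyte libraries.

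The remaining marker lists were measured in the same way. Endothelial markers (9 genes) averaged 40.5 to 122 CPM in sum, mostly *Pecam1*. Epithelial markers (9) averaged 3.57 to 47.3 CPM, and *Epcam* was at 0 in 28 of 30 libraries. Mast cell markers (4) averaged 0.178 to 19.97 CPM, glial and neuronal markers (6) 3.0 to 15.5 CPM, mesothelial markers (4) 1.11 to 6.7 CPM, and erythroid markers (3) 0.675 to 16.7 CPM. The 3 markers of interstitial cells of Cajal, which share *Kit* with the mast cell list, averaged 18.8 CPM in SI SMC and 828 CPM in SI pericytes, mostly *Ano1*. Fibroblast markers (7) averaged 18063 to 73276 CPM in the FB populations and 2498 CPM in colonic pericytes.

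Genes related to the 35 were tested in the same models. Among 20 other class I heavy chains, of which 15 had counts and 8 were tested, the median log2 fold change between tissues was -0.01 for PDGFRα hi FB and 0.52 for Fgfr2+ FB. *H2-M9* was called higher in SI pericytes than in SI FB (1.07, 23.2 and 25.7 CPM in pericytes, and 1 count in 1 of the 9 FB libraries, so that no fold is given), and *H2-Bl* in colonic pericytes over colonic FB (0.538, 13.4 and 1.01 CPM in pericytes, with overlap, mostly in replicate 2). Of 8 tested genes of the wider class II pathway, the endosomal protease *Lgmn* was the 1 called between tissues, higher in the colonic PDGFRα hi FB (-1.86 ± 0.44, adjusted p = 0.0381), and its tissue difference differed between the subsets (-2.60 ± 0.61, adjusted p = 0.0495). SI pericytes had more of *H2-DMb2*, the copy of *H2-DMb1*, and of the costimulatory gene *Cd86* than SI FB, and less of the thiol reductase *Ifi30* (-4.50 ± 1.04). Of all genes, 8.63% were called higher in SI pericytes and 6.56% higher in FB. *H2-DMb1* shared 31.4% of its 31-base stretches with *H2-DMb2*. Library values of *H2-DMb2* and *Cd86* are not given, so whether either rests on 1 library is not shown. *Ifngr1* and *Ifngr2*, the chains of the interferon-γ receptor, split in pericytes. In SI pericytes against FB the log2 fold change was -2.71 ± 0.58 for *Ifngr1* and 3.12 ± 0.31 for *Ifngr2*, and in colonic pericytes -2.30 ± 0.46 and 2.94 ± 0.25. Of 34 interferon-induced genes 3 were called higher in SI pericytes than in FB, where 8.63% of all genes were, led by *Mx2* (3.03 ± 0.76), 1 was called lower in SMC (*Cxcl9*, -2.57 ± 0.73; 1.63% of all genes), and 4 were called higher and 2 lower in colonic pericytes (8.99% and 7.58% of all genes). *Tgtp1*, compared between the subsets, was lower in Fgfr2+ FB and called (-3.74 ± 0.91).

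Members of the class I route varied with *Nlrc5* to different degrees. Over 30 libraries on log2 CPM, *Nlrc5* correlated with *H2-Q7* (r = 0.70 and rho = 0.74), *H2-K1* (r = 0.60 and rho = 0.68), *Psmb9* (r = 0.56 and rho = 0.51), *H2-Q4* (r = 0.55 and rho = 0.61) and *B2m* (r = 0.52 and rho = 0.66), and the other 17 of 22 members had r below 0.5. With *H2-T22*, *Tapbp*, *Psmb10*, *H2-M3*, *Erap1* and *Tap2*, values of r lay between -0.05 and 0.15. *Ciita* did not follow the class II genes, with r from -0.21 for *Cd74* to 0.27 for *H2-DMa*. These 39 correlations are descriptions, since libraries of a population share their gate, libraries of a tissue share that tissue, and the libraries came from 3 mice without a label that links each to its mouse.

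The genes themselves lie mostly in the MHC on chromosome 17, where *H2-K1*, *H2-D1* and all other listed heavy chains are annotated (GENCODE M21, GRCm38), while *B2m* lies at chr2:122147686-122153083. RefSeq promoters (build GRCm38.p6) matched 26 of the 35 members. In the 250 bases before the start, searched on both strands, CCAAT was found in 19 of 26 member promoters and in 34.5% of 27025 promoters, and TGACG in 13 of 26 and 17.9%. The interferon-type motif GAAANNGAA was found in 4 of 26 (*B2m*, *Erap1*, *H2-T22* and *H2-T23*) and 7.16%, and TTCNNNGAA in 2 of 26 (*H2-M3* and *Psmb8*) and 7.18%. The motifs are short, and a match is a description only. Stretches upstream of the start are shown for *B2m* and for heavy chains that were higher in SI, because *H2-Q6* and *H2-Q7* resemble each other there. They lie at chr2:122147527-122147685 (plus strand), chr17:34000348-34000507 (minus strand), chr17:35424690-35424849, chr17:35438995-35439154 and chr17:35469929-35470088 (plus strand), and are written 5′ to 3′ with motif matches in capitals on whichever strand they fall. The longest run of bases shared was 61 between *H2-Q6* and *H2-Q7*, 29 between either and *H2-Q10*, and 15 between *H2-K1* and any of the 3.
B2m: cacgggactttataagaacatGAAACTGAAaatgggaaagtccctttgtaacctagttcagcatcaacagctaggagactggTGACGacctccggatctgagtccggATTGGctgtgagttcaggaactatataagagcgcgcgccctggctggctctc
H2-K1: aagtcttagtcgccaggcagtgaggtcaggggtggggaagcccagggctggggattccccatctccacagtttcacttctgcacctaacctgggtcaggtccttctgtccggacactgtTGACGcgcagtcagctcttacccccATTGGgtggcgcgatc
H2-Q6: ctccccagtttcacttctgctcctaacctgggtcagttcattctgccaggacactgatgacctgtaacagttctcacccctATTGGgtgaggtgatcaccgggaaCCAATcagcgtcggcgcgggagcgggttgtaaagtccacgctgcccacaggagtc
H2-Q7: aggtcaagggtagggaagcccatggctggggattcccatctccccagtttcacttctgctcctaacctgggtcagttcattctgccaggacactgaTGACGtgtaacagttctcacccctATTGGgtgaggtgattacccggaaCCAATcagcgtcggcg
H2-Q10: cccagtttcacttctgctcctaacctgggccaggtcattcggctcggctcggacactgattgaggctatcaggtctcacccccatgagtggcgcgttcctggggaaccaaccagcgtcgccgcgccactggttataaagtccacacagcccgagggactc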

How the data were processed

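The authors trimmed reads with Trim Galore 0.4.0, checked them with FastQC 0.11.2 and quantified mouse transcripts (mm10, GRCm38) with kallisto 0.42.5, according to the submitters' notes. The deposited tables give, for each of 98492 transcripts, an estimated count and a TPM (a length-corrected share). TPM was not used, since 1 transcript held 14.79 to 55.91% of it in a library. The deposited estimated counts were summed to 32386 GENCODE M21 symbols and rounded; 97.83 to 99.21% of counts fell on a matched gene. A gene was tested if 3 or more libraries of a model held 6 or more of its counts, with edgeR 4.0.16 (quasi-likelihood, TMM; R 4.3.3), with adjusted p from Benjamini-Hochberg over all genes tested. PDGFRα hi FB and Fgfr2+ FB of both tissues formed 1 model of 12 libraries, the pericytes of both tissues 1 of 6, and the populations of each tissue 1 of 15. SE is the log2 fold change over the square root of its F statistic. Alternatives were DESeq2 1.42.0, RLE size factors, no filter, 10 counts in every library of 1 population, no fold threshold, a replicate block, all 30 libraries in 1 model, and leaving out each library. SD and SE take in the spread between libraries, whereas the floor of 3 counts covers counting error only. Named were all 35 members, at most 3 called genes with the largest absolute log2 fold change of each pathway list, partner genes, gate genes, and the most abundant and defining genes of each marker list. Some genes that fit this rule are not reported here. The members and lists were chosen with earlier results of these data known. Protein sequences were not analysed here. The edgeR procedure was tested on simulated data for the first comparison of each model. Only genes with many counts were changed there, so calls of genes with few counts, the interaction and the subset difference were not covered.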

Additional observations from a re-analysis of the deposited data

How the results depend on the processing

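Of 118 log2 fold changes of the 20 member calls under alternatives other than leaving out a library, 99 were still called, and of 201 without 1 library, 129. The 1 that reversed was *H2-Q1* in SI pericytes against SI FB, at -1.99 without SI pericyte replicate 3 (adjusted p = 0.535; its range without 1 library was -1.99 to 6.29). *H2-Q4* and *H2-Q7* in both FB subsets and *H2-Q6* in Fgfr2+ FB were called without any 1 library. With all 30 libraries in 1 model the calls of *H2-Q4* (adjusted p = 0.145 for PDGFRα hi FB, 0.0767 for Fgfr2+ FB), *H2-Q6* (0.199) and *H2-Q10* in PDGFRα hi FB (0.218) were lost. The cause was not tested.

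Counts of called members and genes are given here where they differed from the main test by more than 1.5 times. DESeq2 called 8 members and 520 genes between tissues in PDGFRα hi FB, 8 and 1084 in the Fgfr2+ FB, 1 and 561 for the interaction, 2 members between the subsets, 4 and 347 in pericytes, and 7 and 1212 in SI SMC against FB. With all 30 libraries in 1 model there were 168 genes in PDGFRα hi FB, 2 members and 255 genes in the Fgfr2+ FB, 116 genes for the interaction, 0 members between the subsets, 5 and 1000 in pericytes, and 2 members in SI pericytes against FB. Without a filter there were 1 and 340 for the interaction, 2 members between the subsets, and 2 and 22 in pericytes. With 10 counts in every library of 1 population there were 1 member for the interaction, 2 members between the subsets, 3 genes in pericytes and 5 members in SMC. RLE size factors gave 2 members between the subsets. With no fold threshold 8 members were called in colonic pericytes. A replicate block gave 0 members in SI pericytes against FB. With it the calls of *H2-D1* in SMC and of *H2-Q1* and *Cd74* in colonic pericytes were lost too, and *H2-T23* was called there. Across populations, libraries of the same replicate number had a mean correlation of 0.00763 (from -0.113 to 0.135) in their deviations from the population means, and libraries of different numbers one of -0.00346.

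Leaving out 1 library gave 2 to 5 members and 183 to 219 genes in PDGFRα hi FB, 3 to 4 and 275 to 499 in the Fgfr2+ FB, 0 to 1 and 139 to 226 for the interaction, 0 to 2 and 541 to 741 between the subsets, 0 and 0 to 1 in pericytes, 0 to 4 and 1898 to 3162 in SI pericytes, 0 to 4 and 483 to 726 in SMC, and 1 to 6 and 2419 to 2851 in colonic pericytes. The median log2 fold change of all genes moved by more than 0.1 in 4 comparisons. In pericytes it was -0.116 with the replicate block and -0.125 without SI replicate 2. In SI pericytes against FB it was -0.231 without a filter, -0.118 with the block, and -0.176 and -0.206 without pericyte replicates 2 and 3. In SI SMC against FB it was -0.117 and -0.124 without SMC replicates 1 and 2. In colonic pericytes against FB it was -0.185 without a filter, and -0.091 and -0.11 without pericyte replicates 1 and 3. On the length-scaled level the tissue difference had the opposite sign for 4 of 34 members in PDGFRα hi FB (*H2-Q2*, *H2-Aa*, *Canx* and *Pdia3*), 3 of 33 in the Fgfr2+ FB (*Tap2*, *H2-Ab1* and *Pdia3*) and 1 of 32 in pericytes (*Calr*). Depth limits the class II genes, where a library at 0 allows up to 3 counts.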
